A study of Mus musculus with 24 samples.

Results

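The levels of 6 miRNAs known for their work in neurons and at synapses were followed in the retina, 2 brain regions and 5 other tissues of the mouse eye. The 6 were mmu-miR-128-3p, mmu-miR-137-3p, mmu-miR-138-5p, mmu-miR-218-5p, mmu-miR-153-3p and mmu-miR-598-3p. They were taken by name from the 1881 miRNAs on the array, without a cut on their signals. Earlier results of these data were known when they were chosen. All 6 were among the 352 miRNAs detected on at least 3 of 24 arrays.

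The study put male C57BL/6J mice into 3 groups. The normal group, labelled Control, had no lens. The lens-induced group wore a lens of −30 D, a concave lens used to make the eye grow myopic, fixed on the right eye at 3 weeks old and worn for 3 weeks. The third group is labelled 0D, and is taken here as a lens without power. Each group gave 8 arrays, 1 each for cornea, iris, lens, retina, choroid, sclera, SCN and LGN. The choroid of the labels is the RPE/choroid of the methods. SCN and LGN are usually read as the suprachiasmatic and the lateral geniculate nucleus, but the labels do not spell them out. The methods state that equal amounts of RNA from 3 mice were mixed for each array of the ocular tissues of normal and lens-induced eyes, and they say nothing of this for the brain regions or the 0D group.

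A mature miRNA guides a silencing complex to messenger RNAs that pair with its seed, the bases 2 to 8 from its 5′ end, and lowers the protein made from them. miR-128-3p is among the abundant miRNAs of the adult brain and restrains neuronal excitability. miR-137-3p and miR-153-3p repress proteins of synaptic vesicle release, and miR-138-5p limits the size of dendritic spines. miR-218-5p comes from introns of the Slit genes and is enriched in motor neurons.

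The mature sequences are shown because the seed, printed in capitals, decides which messages a miRNA can pair with. RefSeq entries on GRCm38.p6 matched 5 of the 6.
miR-128-3p: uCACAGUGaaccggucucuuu
miR-137-3p: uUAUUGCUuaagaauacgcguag
miR-138-5p: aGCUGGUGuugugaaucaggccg
miR-218-5p: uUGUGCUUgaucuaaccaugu
miR-153-3p: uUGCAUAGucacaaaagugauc
These 5 seeds all differ, so the miRNAs were not copies of a single seed family. miR-128-3p is made from 2 loci, Mir128-1 (chr1:128202404-128202424, plus strand) inside the gene R3hdm1 and Mir128-2 (chr9:112118644-112118664, minus strand) inside Arpp21. miR-218-5p is made from Mir218-1 (chr5:48223966-48223986, plus strand) inside Slit2 and from Mir218-2 (chr11:35616840-35616860, plus strand) inside Slit3, which encode axon guidance ligands. miR-138-5p is made from Mir138-1 (chr9:122682898-122682920, plus strand), which lies in no other annotated gene, and from Mir138-2 (chr8:94324312-94324334, plus strand) inside Nup93. Mir137 (chr3:118433901-118433923, plus strand) lies in no other annotated gene, and Mir153 (chr12:117250860-117250881, plus strand) lies inside Ptprn2 and within the bounds of the lncRNA gene Gm5441 on the other strand. Whether these positions are exonic or intronic was not read here. The copies of a mature miRNA have the same bases, so that the array cannot tell the loci apart.

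The unit throughout is the scaled signal, an array intensity summed over the probes of a miRNA that lie above 3 errors and scaled between arrays. Between 129 and 249 miRNAs were detected per array. The scaling factors ran from −1.01 to 1.65 on the log2 scale, with the highest on the lens arrays, so that a comparison with the lens leans on the scaling. Retinal miR-183-5p and miR-96-5p were highest in the retina, miR-205-5p in the cornea and miR-140-5p in the sclera, as the tissue labels say. Of the pigment cell miRNAs, miR-211-5p was highest in the iris, but miR-204-5p was highest in the lens (mean 1265), above the choroid (802) and the iris (296). The striated muscle miRNAs miR-1a-3p, miR-133a-3p, miR-133b-3p and miR-206-3p were highest in the lens and next highest in the sclera. With 1 array for each tissue and lens group, the 3 arrays of a tissue, from 3 lens groups, stood as its replicates, and p-values measure the spread between these arrays, which may be technical. Each tissue lay at the same position on every slide, so that tissue and position cannot be told apart, and in RNA from a whole tissue fewer cells of a type and less RNA per cell cannot be told apart.

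All 6 miRNAs were higher in retina, SCN and LGN as a group than in the non-neural ocular tissues, against 38.4% of all miRNAs tested that were higher in this comparison. 3 of the 6, miR-137-3p, miR-138-5p and miR-153-3p, were not detected on any of the 15 arrays of cornea, iris, lens, choroid and sclera. They entered the test through neural arrays alone. The test set their non-neural arrays to a constant floor, so that they could not come out as lower. No p-value is therefore given for them in this comparison. The other 3 had some signal outside the nervous tissues, and for miR-218-5p it was strong in the lens.

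**Figure D1:**
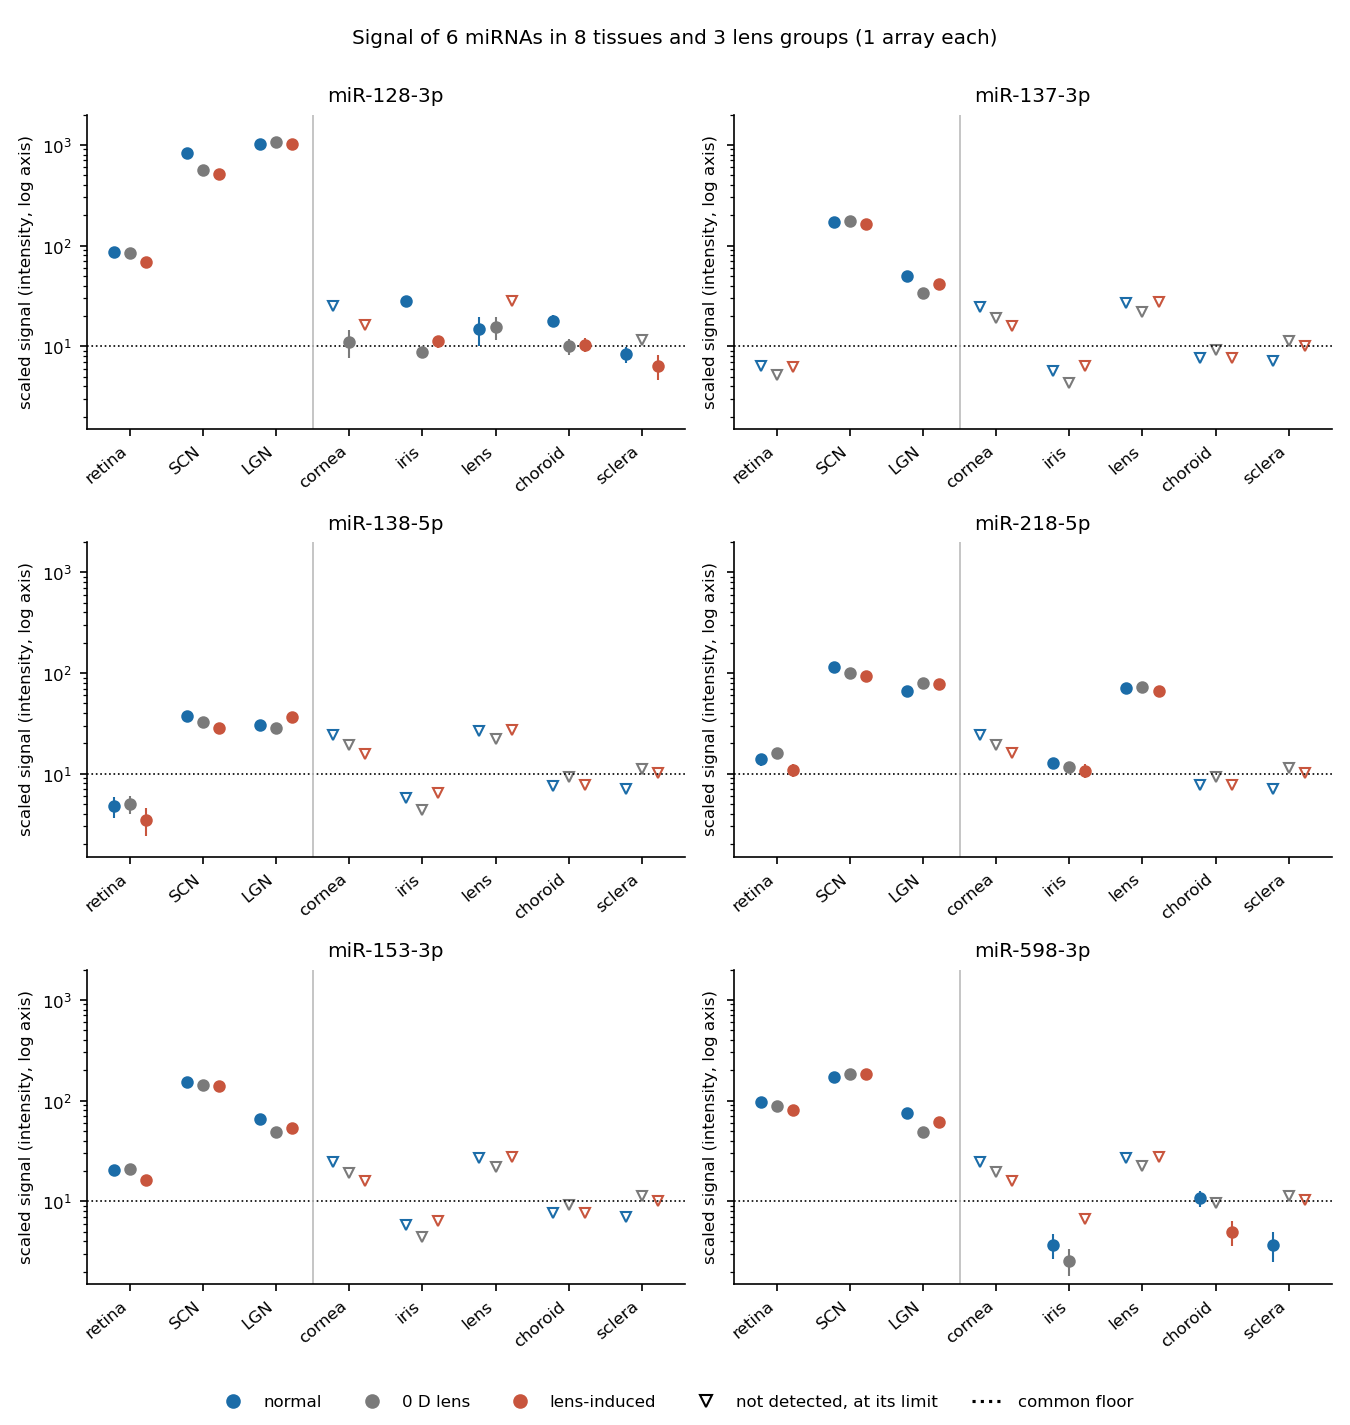
Scaled signal of each miRNA (log axis) by tissue, with 1 array for each lens group in color and its error as a bar; hollow triangles give the limit of arrays on which the miRNA was not detected, and the dotted line the common floor of the test (9.93). miR-128-3p lay between 69.1 and 1073 in retina, SCN and LGN and at or under 28.0 elsewhere, while miR-218-5p was as high in the lens (65.8 to 72.5) as in the LGN.

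For miR-128-3p the LGN arrays gave 1013 ± 81.2 in the normal group, 1073 ± 85.6 with the 0D lens and 1026 ± 82.4 in the lens-induced group, where ± is the error within an array. The SCN arrays gave 827 ± 66.3, 559 ± 44.8 and 516 ± 41.4 in the same order, and the retina arrays 85.5 ± 7.02, 83.7 ± 6.83 and 69.1 ± 5.78. The 3 tissues did not overlap, with LGN above SCN and SCN above retina. Outside them the miRNA was detected on 11 of 15 arrays, and the highest was the iris of the normal group at 28.0 ± 2.64. The choroid arrays gave 17.9, 10.0 and 10.4, so that all of these stood below the lowest retina array. The log2 difference between neural and non-neural tissues was 4.96 ± 0.14 (SE; limma, adjusted p = 7.87e-15), which is at least 27.5-fold where undetected arrays were set at their limits.

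miR-137-3p was a miRNA of the 2 brain regions alone on these arrays. The SCN gave 170 ± 12.3, 173 ± 12.4 and 165 ± 11.9, and the LGN 49.5 ± 3.76, 34.1 ± 2.82 and 41.5 ± 3.44. It was not detected on the 3 retina arrays, where the limits were 5.23 to 6.33, nor on the 15 non-neural arrays, with limits of 4.36 to 27.4. With the non-neural arrays at the floor, its difference over the 3 neural tissues (log2 2.05) could not be below 0, and it came from SCN and LGN. There it was at least 7.26-fold above the non-neural tissues and at least 14.2-fold above the retina.

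miR-153-3p was detected on all 9 neural arrays and on no other. It gave 154 ± 14.7, 142 ± 13.5 and 140 ± 13.4 in SCN, 65.0 ± 6.35, 48.8 ± 4.99 and 53.9 ± 5.53 in LGN, and 20.2 ± 2.28, 20.8 ± 2.25 and 16.2 ± 1.92 in the retina. The 3 tissues were again apart, here with SCN at the top. The log2 difference over the non-neural tissues, with all of their arrays at the floor, was 2.43, at least 4.64-fold. In the choroid the limits were 37.8% to 47.1% of the retina signal, and in cornea and lens they reached above 100% of it on some arrays, so that a level below that of the retina was not detectable there.

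miR-138-5p was detected on all 9 neural arrays, but its retina signals lay under the common floor of the test. They were 4.76 ± 1.14, 4.99 ± 0.985 and 3.48 ± 1.08. SCN gave 37.8 ± 3.66, 32.7 ± 2.89 and 28.1 ± 2.94, and LGN 30.7 ± 2.63, 28.6 ± 2.55 and 36.8 ± 3.25. SCN and LGN overlapped, and both stood well above the retina. The log2 difference between neural and non-neural tissues, with all non-neural arrays at the floor, was 1.13, at least 1.44-fold.

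The other arms of the hairpins differ in sequence between loci, unlike the mature miRNAs above. Of 9 such arms on the array, 8 were detected nowhere, among them both partner arms of miR-128-3p and of miR-218-5p. miR-138-1-3p, the partner made from Mir138-1, was detected on the 3 LGN arrays at 3.01 to 4.57 and on no other array. miR-138-2-3p, the partner made from Mir138-2, was not detected. The 2 partners are shown since they are the means to tell the 2 loci apart, again with bases 2 to 8 in capitals.
miR-138-1-3p: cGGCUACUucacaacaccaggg
miR-138-2-3p: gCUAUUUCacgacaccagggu
These LGN signals were among the dimmest that the arrays detected, and probes of different miRNAs differ in brightness, so that no share of either locus was read from them.

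miR-598-3p differed from the others in the order of its neural tissues, with the retina between SCN and LGN. The SCN gave 171 ± 12.3, 182 ± 13.0 and 183 ± 13.1, the retina 96.4 ± 6.99, 88.5 ± 6.39 and 79.6 ± 5.83, and the LGN 74.9 ± 5.48, 48.7 ± 3.73 and 60.6 ± 4.64. It was the only member with more signal in the retina than in the LGN, and the arrays of these tissues did not overlap. Outside the neural tissues it was detected on 5 of 15 arrays, at most at 10.8 ± 1.95 in the choroid of the normal group. The log2 difference between neural and non-neural tissues was 3.30 ± 0.05 (limma, adjusted p = 6.57e-18), at least 9.45-fold.

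miR-218-5p broke the pattern, because the lens carried as much as the LGN. SCN gave 114 ± 8.69, 99.4 ± 7.47 and 92.8 ± 7.13, LGN 65.7 ± 4.99, 79.5 ± 6.01 and 77.6 ± 5.95, and the lens 71.5 ± 8.25, 72.5 ± 7.43 and 65.8 ± 8.13. The retina gave 13.8 ± 1.80, 16.2 ± 1.69 and 10.9 ± 1.66, and the iris 12.7 ± 1.65, 11.7 ± 1.35 and 10.67 ± 1.70. LGN and lens overlapped, as did retina and iris, while cornea, choroid and sclera had no detected signal. The log2 difference between neural and non-neural tissues was 1.62 ± 0.05 (limma, adjusted p = 9.72e-14), at least 2.82-fold, with detection on 6 of 15 non-neural arrays. The high place of the lens depended on the scaling. Before scaling the lens gave 27.3, 30.1 and 20.9 against 20.6, 30 and 16.9 in the retina and 87.8, 131 and 107 in the LGN, so that lens and retina then overlapped and the lens stood below the LGN. On the same lens arrays the striated muscle miRNAs miR-133a-3p and miR-133b-3p had mean scaled signals of 293 and 340, against 90.3 and 127 in the sclera. Their part in the lens level of miR-218-5p was not tested.

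Each of the 6 was measured by 2 probes of 15 spots each. On arrays where both probes of a member were above 3 errors, the ratio of the brighter to the dimmer stayed within 2.81 to 3.53 for miR-128-3p, 1.21 to 1.34 for miR-137-3p and 1.72 to 2.04 for miR-218-5p. It was 1.81 to 1.99 for miR-138-5p and 1.1 to 1.17 for miR-598-3p. The probes of a member thus kept nearly the same ratio over the arrays that had both. These were 6 arrays each for miR-137-3p and miR-138-5p, 10 for miR-598-3p, 11 for miR-128-3p and 15 for miR-218-5p. For miR-137-3p they were SCN and LGN arrays alone. For miR-153-3p the ratio was 16.1 to 20.5 over the 4 arrays with both, so that its signal rested nearly on 1 probe.

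**Figure D2:**
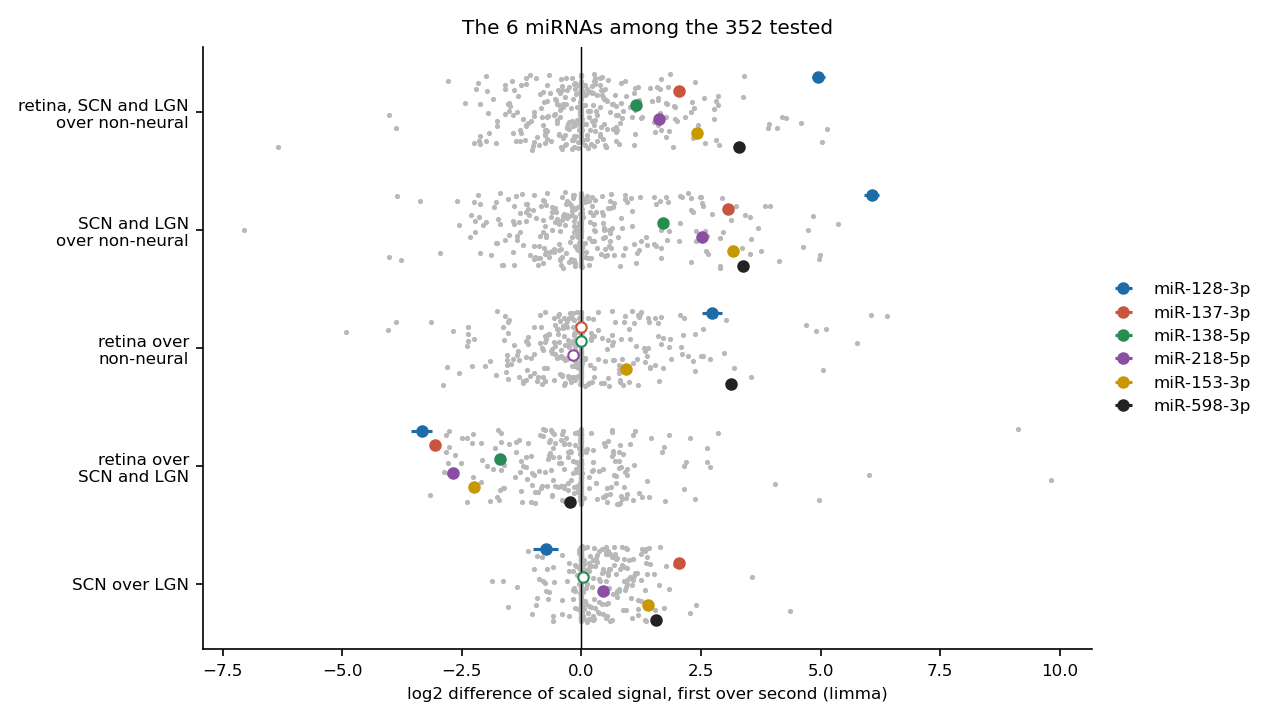
Log2 difference of scaled signal in 5 tissue comparisons, with the 6 miRNAs in color (bars are SE, filled where the limma adjusted p is below 0.05) and all other tested miRNAs as grey dots. The 6 lie to the right in both comparisons of brain with non-neural tissue (1.13 to 6.07) and to the left for retina over SCN and LGN (−0.24 to −3.34).

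Taken without the retina, SCN and LGN stood above the non-neural ocular tissues for all 6, where 35.8% of all miRNAs tested were higher. The log2 differences were 6.07 ± 0.15 for miR-128-3p, 3.38 ± 0.06 for miR-598-3p, 3.17 ± 0.05 for miR-153-3p, 3.07 ± 0.05 for miR-137-3p, 2.52 ± 0.06 for miR-218-5p and 1.70 ± 0.05 for miR-138-5p. For miR-128-3p this was at least 59.4-fold, and for miR-138-5p at least 2.81-fold. The median over the 6 was 3.12, against 0 over all miRNAs tested. The limma adjusted p was 3.30e-15 for miR-128-3p and 2.04e-15 for miR-218-5p. Arrays set to the floor have no spread. The errors are thus too small for miR-598-3p, whose non-neural arrays were at the floor except the choroid of the normal group. They are also too small for members that were not detected in the non-neural tissues. Those members, miR-137-3p, miR-138-5p and miR-153-3p, could not come out as lower here either.

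The retina on its own was above the non-neural ocular tissues for 3 of the 6, against 27.3% of all miRNAs tested. miR-128-3p was higher by 2.73 ± 0.20 on the log2 scale, at least 5.86-fold (limma, adjusted p = 6.48e-09). miR-598-3p was higher by 3.14, at least 8.46-fold, and miR-153-3p by 0.93, at least 1.65-fold. No error or p-value is given for miR-598-3p and miR-153-3p, since floored arrays have no spread. For miR-598-3p the non-neural arrays were at the floor except the choroid of the normal group. For miR-153-3p the non-neural arrays were all at the floor, so that it could not come out as lower. Its limits were 105% to 169% of the retina signal in the lens and 92.5% to 120% in the cornea. A retina level above lens and cornea was thus not shown for it. miR-137-3p was not detected on either side, and miR-138-5p was under the floor in the retina and not detected elsewhere, so that neither could be compared. miR-218-5p gave −0.17 ± 0.08 (limma, adjusted p = 0.0887). That value turned with the lens arrays, since without the lens the difference was 0.38 and without scaling it was 1.15, passing as higher in both. It passed as lower without the cornea, the choroid or the sclera (−0.32 each), without the iris (−0.26) and without the 0D slide (−0.30).

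Within the nervous tissues, 5 of the 6 were several times lower in the retina than in SCN and LGN, while miR-598-3p was not. All 6 passed the test on the lower side, against 29.8% of all miRNAs tested. miR-137-3p and miR-138-5p were at the floor on all retina arrays, so that they could not come out as higher there. miR-137-3p also entered the test through SCN and LGN arrays alone. For miR-128-3p the call was lost in 1 of 15 alternatives, with undetected values at 0.1, where the difference was the same (limma, adjusted p = 0.109, the largest over its alternatives). The retina stood at 0.0986 of the mean of SCN and LGN for miR-128-3p (log2 −3.34 ± 0.23; limma, adjusted p = 2.02e-09), at 0.155 for miR-218-5p, at 0.212 for miR-153-3p and at 0.135 for miR-138-5p. For miR-138-5p the floor made the fitted log2 difference of −1.70 ± 0.07 smaller than the measured ratio. For miR-598-3p the ratio was 0.847, with a log2 difference of −0.24 ± 0.08 (limma, adjusted p = 0.0270). The direction for miR-598-3p did not hold under other scalings, since it was 0.16 without scaling and 0.02 with quantile normalization. Without the lens-induced slide it was −0.16 and did not pass. Of its 15 alternatives, the call held in 6, was lost at the same direction in 6, and the direction turned in 3. Unscaled, SCN and retina overlapped for this miRNA. Without scaling, 101 of all miRNAs tested were higher and 95 lower in the retina, in place of 66 and 105.

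SCN and LGN differed from each other for 5 of the 6. 4 were higher in SCN, against 28.1% of all miRNAs tested, and 1 was lower, against 6.82%. miR-137-3p was 4.11-fold higher in SCN (log2 2.04 ± 0.08; limma, adjusted p = 3.24e-12), miR-598-3p 2.95-fold (1.56 ± 0.10) and miR-153-3p 2.61-fold (1.38 ± 0.08). The arrays of the 2 regions did not overlap for these 3, scaled or unscaled. The call for miR-598-3p was lost in 1 of 15 alternatives, again with undetected values at 0.1, at the same difference (limma, adjusted p = 0.552, the largest over its alternatives). miR-218-5p was 1.37-fold higher in SCN (log2 0.46 ± 0.10; limma, adjusted p = 0.00206), but unscaled the 2 regions overlapped and the difference was −0.02, and without the normal slide it was 0.29 and did not pass. miR-138-5p did not pass the test (log2 0.04 ± 0.08; limma, adjusted p = 1), and its direction hung on single slides and on the scaling: without the lens-induced slide it passed as higher in SCN (0.25), without either other slide it was below 0, and without scaling it passed as lower (−0.44). Without scaling 71 of all miRNAs tested were higher and 52 lower in SCN, in place of 99 and 24.

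miR-128-3p alone among the 6 was higher in LGN, with SCN at 0.598 of it (log2 −0.74 ± 0.26; limma, adjusted p = 0.0376). The call was lost in 6 of 15 alternatives, with adjusted p up to 1 by limma. These were leaving out the 0D slide (−0.64) or the lens-induced slide (−0.62), dropping the lens group term, testing without a filter, and 2 other values for undetected miRNAs. SCN was below LGN in all 15, and the difference was smallest on the normal slide, at 827 against 1013. The oligodendrocyte miRNAs miR-219a-5p and miR-338-3p were also higher in LGN than in SCN, at a mean of 200 against 70.4 and of 545 against 215. Their part in the difference of miR-128-3p was not tested.

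**Figure D3:**
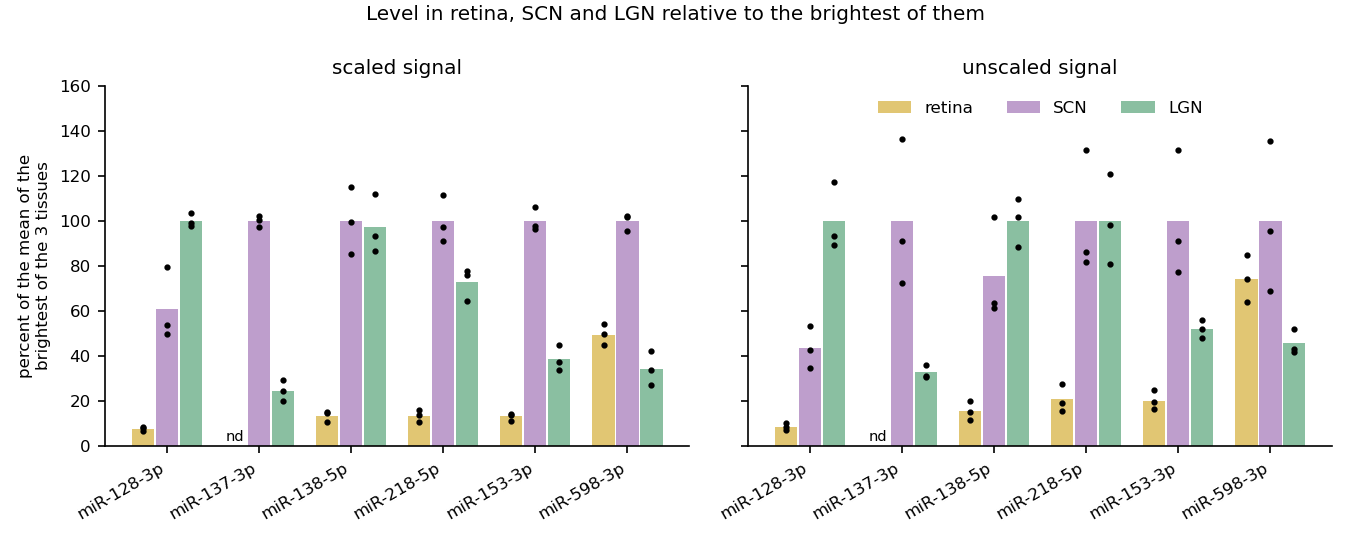
Level of each miRNA in retina, SCN and LGN as a percent of the mean of the brightest of the 3 tissues, before and after scaling; bars are means over 3 arrays, points are arrays, and nd marks no detected signal. The order of SCN and LGN held on both scales for miR-128-3p, miR-137-3p, miR-153-3p and miR-598-3p, and not for miR-138-5p and miR-218-5p.

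The low signals of miR-128-3p and miR-598-3p in the other eye tissues were set beside those of other miRNAs that are high in the retina. In the choroid, miR-598-3p had 11.2% of the retina signal in the normal group and 6.28% in the lens-induced group, and miR-128-3p had 21%, 12% and 15% in the normal, 0D and lens-induced groups. The photoreceptor miRNAs miR-183-5p, miR-96-5p and miR-182-5p had 4.53% to 9.27% of their retina signal there. The neuronal miRNAs spread more widely, with 5.59% to 8.63% for miR-124-3p, 9.66% to 14.3% for miR-9-5p and 17.7% to 24.1% for miR-9-3p. Both members lay within the range of these neuronal miRNAs. Of a list of 20 neuronal miRNAs, 8 were detected on all 3 choroid arrays. Their mean percents of the retina ran from 5.30% to 456%, with a median of 11.7%. At the top were miR-139-5p, dim in the retina, and miR-149-5p at 38.3%. In the sclera miR-128-3p had 9.72% and 9.26% on the normal and lens-induced slides and miR-598-3p 3.84% on the normal slide, beside 2.79% to 6.85% for the photoreceptor miRNAs and 12.9% to 13.9% for miR-9-3p. Some other neuronal miRNAs stood below miR-128-3p there, with 3.15% to 5.15% for miR-124-3p and 1.98% to 2.28% for miR-129-5p. Others stood above it, with 44.9% to 47.0% for miR-149-5p and 91.3% and 115% for miR-139-5p on the normal and 0D slides. The 5 of the list detected on all 3 sclera arrays had mean percents of 2.18% to 45.6%, with a median of 6.77%. miR-132-3p had 4.13% on the normal slide, and miR-9-5p was not detected in the sclera.

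In the iris miR-128-3p had 10.4% to 32.7% and miR-598-3p 2.91% and 3.8% of the retina signal. miR-183-5p, miR-96-5p and miR-124-3p had 0.111% to 0.293% there, and miR-182-5p and miR-9-5p were not detected. Other neuronal miRNAs were higher, with 0.591% to 2.41% for miR-9-3p, 1.23% to 1.60% for miR-129-5p and 4.70% to 5.86% for miR-132-3p. Of the list of 20 neuronal miRNAs, 7 were detected on all 3 iris arrays, and their mean percents of the retina ran from 0.212% to 78.9% with a median of 5.40%. The top of this range was miR-139-5p, with a retina mean of only 4.28, and miR-149-5p at 56.1%. Next among the 7 was miR-181a-5p at 6.75%. miR-128-3p, at a mean of 19.8%, thus lay above all of the 7 but miR-139-5p and miR-149-5p. miR-598-3p, at a mean of 3.35% where detected, lay below the median. The part of retinal RNA in these signals was not tested.

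**Figure D4:**
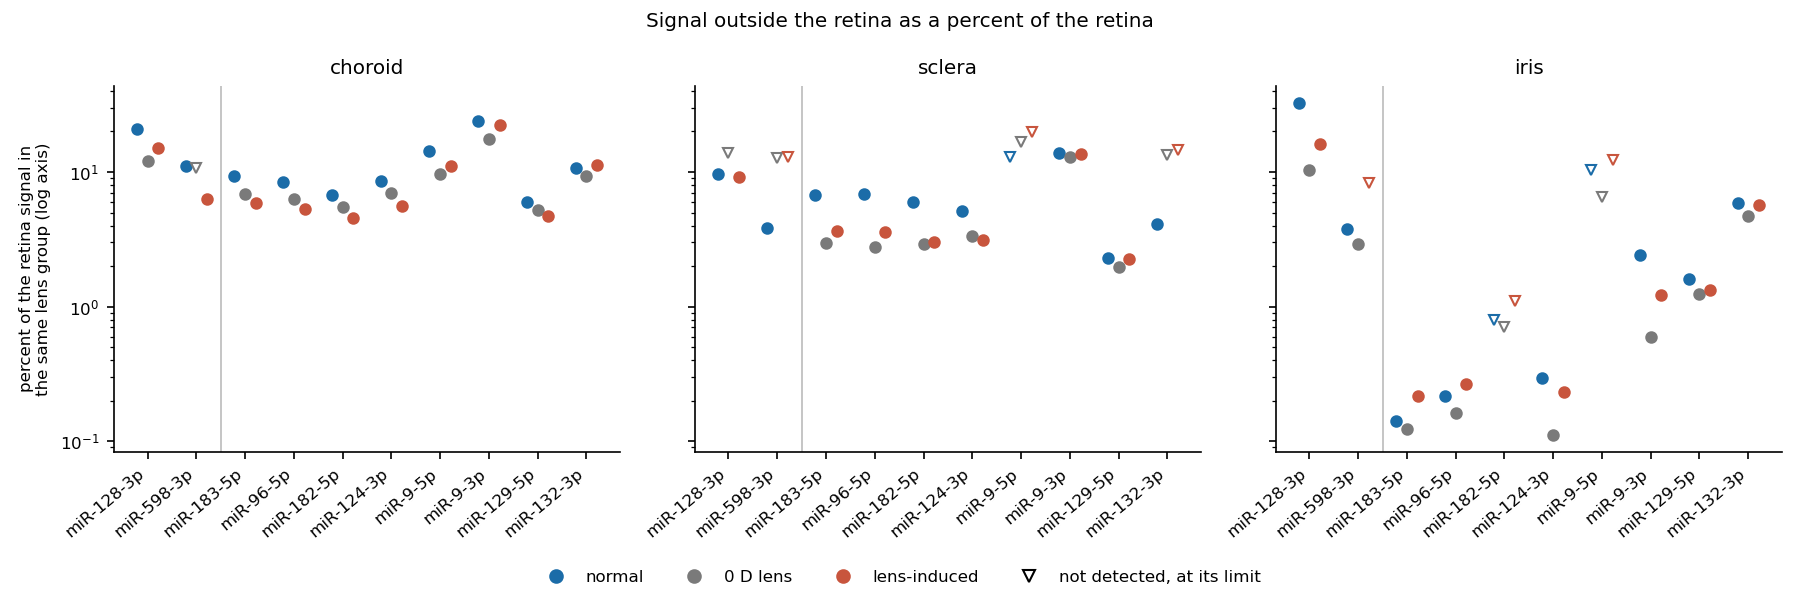
Signal in choroid, sclera and iris as a percent of the retina array of the same lens group (log axis) for miR-128-3p and miR-598-3p, left of the grey line, and for 3 photoreceptor and 5 neuronal miRNAs on its right; hollow triangles are limits where a miRNA was not detected. In the iris the detected members lie at 2.91% to 32.7%, above the photoreceptor miRNAs and miR-124-3p (0.111% to 0.293%), while miR-132-3p (4.70% to 5.86%) lies between miR-598-3p and miR-128-3p.

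The other neuronal miRNAs on the array show how far the pattern was shared. Of the same list of 20, 19 could be tested. 18 were higher in the 3 neural tissues than in the non-neural ones, against 38.4% of all miRNAs tested, with a median log2 difference of 1.78. Of the 18, miR-7b-5p, miR-330-3p, miR-383-5p, miR-384-5p, miR-433-3p, miR-485-5p, miR-487b-3p and miR-495-3p were not detected on any non-neural array. They entered the test through neural arrays alone and could not come out as lower. In retina over SCN and LGN 15 of the 19 were lower and 3 higher, with a median of −1.29 beside −2.46 for the 6. Of all miRNAs tested 29.8% were lower and 66 of 352 higher. miR-139-5p, miR-330-3p, miR-383-5p, miR-384-5p, miR-485-5p and miR-495-3p were at the floor on all retina arrays and could not come out as higher. The 3 higher in the retina were miR-124-3p, a miRNA of nearly all neurons, at 2.69, miR-181a-5p at 2.86 and miR-129-5p at 0.96. In SCN over LGN 13 of the 19 were higher and 1, miR-181a-5p, lower (−0.92), against 28.1% and 6.82% of all miRNAs tested. The retina alone was above the non-neural tissues for 10 of the 19 and below for 1, against 96 and 105 of all 352 miRNAs tested. The listed miRNAs that were not detected in the non-neural tissues could not come out as lower here either.

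The miRNAs most like each member over the 24 arrays were found by Pearson correlation of floored log2 signal among 300 candidates. The values are a description over arrays that share slides and tissues. miR-137-3p and miR-138-5p were above the floor in SCN and LGN alone. Their r thus rests largely on arrays held at a single value. For miR-137-3p they were miR-326-3p, miR-433-5p and miR-341-3p, with r from 0.996 to 0.999. For miR-153-3p they were miR-382-5p, miR-344b-3p and miR-487b-3p, for miR-138-5p miR-330-3p, miR-433-3p and miR-329-3p, and for miR-128-3p miR-551b-3p, miR-132-3p and miR-410-3p, with r from 0.953 to 0.995. miR-598-3p was most like miR-3099-3p, miR-129-2-3p and miR-9-5p, at 0.973 to 0.977. The nearest to miR-218-5p were less alike, with miR-34b-5p, miR-125a-5p and miR-34c-5p at 0.951, 0.905 and 0.903. Among the members themselves the highest r was 0.970, for miR-137-3p with miR-153-3p, and the lowest was 0.576, for miR-218-5p with miR-598-3p.

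miR-27a-3p and miR-27b-3p hold the seed letters of miR-128-3p shifted by 1 base, at their bases 3 to 9. They are printed for comparison, with their own bases 2 to 8 in capitals.
miR-27a-3p: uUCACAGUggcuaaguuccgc
miR-27b-3p: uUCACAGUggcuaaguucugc
miR-27a-3p was lower in all 3 neural tissues than in cornea, iris, choroid and sclera. Its mean scaled signal was 564 in cornea, 378 in iris, 357 in sclera and 347 in choroid, against 43.3 in the retina, 104 in SCN and 93.9 in LGN, with the lens near the brain regions at 134. Unscaled the iris (605) was highest, and the lens (49.5) was below the retina (70.6). miR-27b-3p had scaled means of 84.0 in cornea, 83.3 in sclera and 69.4 in choroid, against 27.7 in the retina and 23.2 in SCN. LGN (40.1) was close to the iris (39.5), and the lens was lower than all of these, with 13.3 on the 1 array that detected it. Unscaled the choroid (93.4) was highest for miR-27b-3p, and the cornea (47.7) was close to the retina (45.4). miR-7002-3p, with the same seed as miR-218-5p, was not detected on any array.

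Lens wear was compared over the 8 tissues together and then within each tissue. No member passed the test between lens groups, and few other miRNAs did. Between the lens-induced and the normal group 0% of the 352 miRNAs passed (limma; 25 had an unadjusted p below 0.05), between 0D and normal 0.568% and between lens-induced and 0D 0.284%. All 6 members had lower fitted values in the lens-induced than in the normal group, by −0.02 to −0.46 on the log2 scale, as had 46.9% of all miRNAs tested. Over 20 alternatives, 4 of 117 member values were above 0, those of miR-137-3p and miR-138-5p, in 3 of the alternatives. miR-128-3p gave the −0.46 (± 0.16; limma, adjusted p = 0.422). The 8 arrays of each lens group shared a slide, and an effect of the slide cannot be told apart from that of the lens.

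Within a tissue there is 1 array on each side, so that ratios are given with the error within the arrays and no test. The study's methods call a change at a ratio above 2 or below 0.5 with both arrays detected, and above 5 or below 0.2 where 1 array is not detected. No member met this in retina, SCN or LGN in any of the 3 pairs of groups. Over all tissues 5 of 26 combinations of member and tissue met it for lens-induced against normal, beside 17.2% over all miRNAs, and these were miR-128-3p and miR-598-3p in non-neural tissues, as in the other pairs. For 0D against normal it was 5 of 27, beside 15.6%, and for lens-induced against 0D 5 of 26, beside 15.4%. These shares were near those of all miRNAs. Of the 15 in all, 3 had both arrays detected, and of the other 12 only that of miR-598-3p in the choroid, 0D against normal, was above the limit of the undetected array (at least 1.13-fold lower).

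The 3 with both arrays detected were miR-128-3p in the iris, on both lens slides, and miR-598-3p in the choroid. In the iris miR-128-3p gave 28.0 ± 2.64 in the normal group, 8.73 ± 1.14 with the 0D lens and 11.2 ± 1.55 in the lens-induced group, log2 ratios of −1.68 ± 0.23 and −1.32 ± 0.24 against normal. Unscaled these were −1.21 and −1.43. The normal iris thus stood above both lens groups, which lay close to each other. On the same arrays, in the same order, miR-124-3p had 0.293%, 0.111% and 0.230% of its retina signal, and miR-9-3p 2.41%, 0.591% and 1.23%. miR-132-3p had 5.86%, 4.70% and 5.64%, and miR-129-5p 1.60%, 1.23% and 1.32%. miR-181a-5p went the other way, with 5.36%, 6.26% and 8.64%. Their relation to the change of miR-128-3p was not tested. In the choroid miR-598-3p gave 10.8 ± 1.95 in the normal and 5.0 ± 1.37 in the lens-induced group, a log2 ratio of −1.11 ± 0.47.

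In the retina all 5 measured members were lower in the lens-induced than in the normal group, by log2 −0.28 to −0.45, and the 222 miRNAs detected on both arrays had a median of −0.22. Relative to that median the members lay at −0.06 to −0.23. For miR-128-3p the ratio was −0.31 ± 0.17 and for miR-598-3p −0.28 ± 0.15. In the SCN miR-128-3p was lower than normal in both lens groups, by −0.68 ± 0.16 lens-induced and −0.56 ± 0.16 with the 0D lens. Unscaled the latter turned to 0.32, while the former stayed at −0.31. In the LGN miR-598-3p and miR-137-3p were lower with the 0D lens than in the normal group, by −0.62 ± 0.15 and −0.54 ± 0.16, and unscaled by −0.31 and −0.23.

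**Figure D5:**
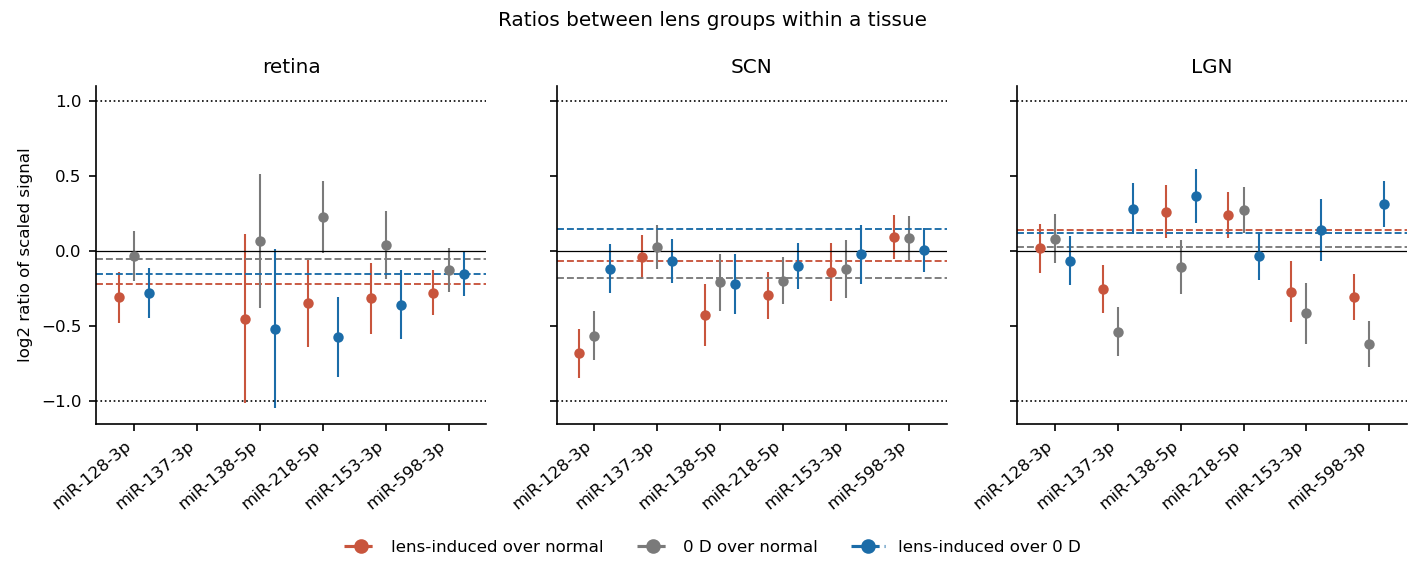
Log2 ratios between the arrays of 3 pairs of lens groups in retina, SCN and LGN, with bars for the error within the arrays and no replicate; dashed lines give the median of all miRNAs detected on both arrays and dotted lines the 2-fold limits. All points lie within the limits, from −0.68 to 0.37.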

How the data were processed

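The 24 arrays were 1-color mouse miRNA arrays (miRBase 21) labelled with cyanine 3 from 100 ng total RNA. The authors digitized the scans with Agilent Feature Extraction 10.7.1.1, per the labels, and deposited an intensity for each probe after background subtraction, with its error and a detection flag. Probes whose intensity exceeded 3 times its error were added up to give 1 signal for each miRNA. The flags matched this rule for all 45144 values. A deposited table of the same intensity values was equal to these sums within 0.023 over 3338 detected values. Its 16 columns that could be assigned to arrays were used for this, and 8 others were not used.

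Arrays were scaled to share their 75th percentile, read from the 79 miRNAs that every array detected. Values under a common floor of 9.93, the highest of the arrays' lowest detected signals, and undetected values were set to the floor, and log2 was taken. limma 3.58.1 under R 4.3.3 was fitted with tissue and lens group as terms on 352 miRNAs detected on at least 3 arrays (46 of them at the floor throughout), with Benjamini-Hochberg adjustment and a threshold of 0.05. The number of arrays limits the precision. In an "at least" fold, an undetected array was set to the higher of its lowest detected signal and 3 times the summed errors of the probes. On simulated data with 306 miRNAs, 29 of 30 with 2-fold and 30 of 30 with 4-fold differences between neural and non-neural tissues were called, and 1 of 246 unchanged ones. The simulated miRNAs had means above the floor and no undetected values. They therefore say nothing on calls of miRNAs that were undetected or at the floor in a group.

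The 6 miRNAs and the lists were chosen with earlier results of these data known. The text names the members, the other arms of their hairpins, the 3 most similar miRNAs of each, miRNAs with the same or a shifted seed, and a list of 20 neuronal miRNAs by counts, together with marker miRNAs of cell types. The list members named for the retina, choroid, sclera and iris were chosen after their values were seen. Alternatives changed the scaling, the value of an undetected miRNA, the filter, the background correction, the probes, the variance model, the lens group term and the arrays. Python 3.11.15, numpy 2.4.6, pandas 2.3.3 and matplotlib 3.10.9 were used.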

Additional observations from a re-analysis of the deposited data

How the results depend on the processing

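All 6 members stayed higher in the neural tissues together, and in SCN and LGN, than in the non-neural tissues under every alternative run that kept them in the test. Requiring detection on at least 12 arrays left only 3 members, and the count was then 3 in place of 6 in these comparisons and in retina against SCN and LGN, and 2 in place of 4 for SCN over LGN. For retina over non-neural tissues the count of 3 became 5 without scaling and with undetected values at 0.1, and 6 with a normexp background correction. In that comparison miR-218-5p (−0.17) turned to 1.15 without scaling, 0.72 with undetected values at the lowest of their array, 3.81 at 0.1, 0.21 with normexp, 0.38 without the lens (−0.32 to 0.38 when any tissue or slide was left out) and 0.78 with the percentile over each array's own detected miRNAs. miR-598-3p in retina against SCN and LGN turned to 0.16 without scaling, 0.0221 with quantile normalization and 0.0262 with the own percentile. In SCN over LGN miR-218-5p turned to −0.0156, −0.15, −0.11 and −0.0224 without scaling, with quantile normalization, with normexp and with the own percentile. miR-138-5p there turned to −0.44 without scaling, −0.44 with quantile normalization, −0.19 with normexp, −0.25 with the brightest probe, −0.44 with the own percentile, and ranged from −0.10 to 0.25 when a slide was left out. Without scaling 1 member, miR-218-5p, passed as lower in lens-induced than in 0D (−0.37), and 25 of all miRNAs passed in place of 1. No other setting gave a member call between lens groups. Within tissues, undetected values at the lowest of their array left 2, 1 and 0 of the 5, 5 and 5 changes, and a ratio of 3 left 3 for lens-induced against normal, while quantile normalization raised them to 7 and 6 for lens-induced and 0D against normal, and no scaling raised the latter to 6. The cause of these changes was not tested. The own percentile and a test without miRNAs at the floor were added after seeing the data. The planned percentile over all miRNAs could not be used for scaling, since it is −0.28 on 1 lens array. The fit had the lens group, which is also the slide, as a block, and leaving it out ended 1 member call, that of miR-128-3p in SCN over LGN. Most miRNAs lay near the background, where depth of signal limits what can be detected.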
